A study of Mus musculus with 12 samples.

Results

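The 80 genes of the cytosolic ribosomal proteins, 49 of the large subunit and 31 of the small subunit, were followed through 12 libraries of mouse rod photoreceptors. They were picked by annotation and name alone out of 52962 genes: protein-coding genes on assembled chromosomes whose symbol is Rpl or Rps with a number (with or without a closing a, x, y or l), Rplp0 to Rplp2, or Rpsa. No measured value entered the choice. The series addressed protein kinase CK2 in rods, the neurons of dim-light vision, and Csnk2a1 encodes the alpha catalytic subunit of that kinase. Retinas had been electroporated, so that some cells took up plasmid DNA and GFP, and were dissociated with papain at postnatal day 8. GFP-positive rods were picked by hand with a micromanipulator, 50 to 100 cells a library, and libraries were made from the RNA with a stranded SMARTer Pico kit and sequenced from both ends.

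There were 4 groups of 3 libraries. Group shRNA mCsnk2a1 received a short hairpin RNA against mouse Csnk2a1 and group shRNA Control its control hairpin. Group pcDNA4c mCsnk2a1 received the expression vector pcDNA4c with mouse Csnk2a1, and group pcDNA4c Control the vector control. The sources used here name no strain, genotype or plasmid promoter. The plasmids reach only part of a retina and the cells carry them transiently, so each library is a small picked sample. Each treatment had 3 independent RNA samples per the labels, but the labels leave unsaid whether they came from different animals, and a p-value then covers the variation among these RNA samples alone, which may be technical. Below, knockdown means the Csnk2a1 hairpin against its control hairpin and overexpression the Csnk2a1 vector against the vector control. The words name the construct, not a verified change of the kinase.

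Ribosomal proteins are the protein part of the cytosolic ribosome: the small subunit decodes the messenger RNA and the large subunit joins the amino acids. Their genes are expressed in every cell, photoreceptors included, and their messenger RNAs share a run of pyrimidines at the very start that lets growth signals through the mTOR kinase control their translation. They are also known for many intronless copies in the genome, processed pseudogenes, whose sequence can be almost that of the parent gene.

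The libraries held 1608926 to 3567121 estimated counts, and the Csnk2a1 libraries of both arms (2296056 to 3567121) were deeper than all 6 control libraries (1608926 to 2017623). Csnk2a1 itself was at 66.9, 57.2 and 8.51 CPM (counts of a gene scaled to the size of its library by edgeR's TMM method, per a fixed large total) in shRNA Control and 12.0, 22.2 and 36.0 in shRNA mCsnk2a1, so those groups overlapped. It was at 86.6, 25 and 28.3 in pcDNA4c Control and 49.9, 145 and 122 in pcDNA4c mCsnk2a1, again overlapping (edgeR log2 difference -0.92, SE 0.88, adjusted p = 0.905 with knockdown and 1.18, SE 0.88, adjusted p = 0.801 with overexpression). The 15 rod markers were present in every library. They summed to 6814 to 9235 CPM in shRNA Control and 14417 to 16602 CPM with the Csnk2a1 hairpin, and to 7005 to 8850 CPM in pcDNA4c Control and 6599 to 13598 CPM with the Csnk2a1 vector. Mitochondrial genes held 7.31% to 8.69% of the counts in the 6 control libraries and 9.54% to 12.8% in the 6 Csnk2a1 libraries. The 3 pcDNA4c Control libraries stood apart in macrophage and microglia markers: all 14 were present in each of them, at a summed 3802 to 4317 CPM, against 85.2 to 231 in the other 9 libraries. Of those 14 markers, 4, 6 and 7 were at 0 in all 3 libraries of shRNA Control, shRNA mCsnk2a1 and pcDNA4c mCsnk2a1 in turn, with the complement gene C1qa and the signalling adaptor gene Tyrobp at 0 in all 9. Every comparison that uses pcDNA4c Control rests on these libraries.

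Ribosomal protein RNA was a small and uneven part of each library. The 80 genes held 0.588% to 1.32% of the counts, and 78 of them passed the filter on low counts, 47 of the large and all 31 of the small subunit. The 2 that did not were paralogs known from restricted tissues: Rpl39l, a testis form of Rpl39, was listed at 0 in all 12 libraries, and Rpl3l, a muscle form of Rpl3, was at 0 in 8 libraries and reached 15.0 CPM in a single one, shRNA mCsnk2a1 1. On the length-corrected scale of TPM (a transcript's share after division by its length, scaled to the same total in every library), the tested genes had a median level of 71.5 in the large and 97.8 in the small subunit, against 4.33 over all genes tested. Within the large subunit the means over 12 libraries ran from 2.52 for Rpl10l to 395 for Rplp2, and the lowest of the small subunit was Rps2 at 8.05.

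At the top of the large subunit stood Rplp2, an acidic protein of the stalk that recruits elongation factors, with a mean of 395 TPM ± 158 (SD, n = 12). Rpl13a, a surface protein of the large subunit, was at 389 ± 132, Rpl41, the smallest ribosomal protein, at 307 ± 138, and Rpl23a, which lies at the exit of the peptide tunnel, at 304 ± 129. The SD of each was wider than the steps between these means, but it includes the differences between groups. Whether these genes differ within libraries was not tested. Among the highest of the small subunit were Rps27, a zinc finger protein, at 275 ± 170, Rps24 at 252 ± 127, Rps28 at 214 ± 118 and Rpsa, also known as a laminin receptor precursor, at 160. There too the spread over libraries was wider than the steps between these genes.

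The lowest tested genes included core proteins of both subunits. Rpl3, an essential core protein near the peptidyl transferase centre, had a mean of 4.13 TPM ± 5.48, Rpl12, which binds the base of the stalk, 11.0 ± 9.67, Rps2 8.05 ± 18.5 and Rps18 11.0 ± 13.7. The other low ones were paralogs: Rps27l, a form of Rps27 known as a p53 target, at 18.2 ± 17.1, and Rpl10l, a testis form of Rpl10, at 2.52 ± 5.49. Rpl10l was at 0 in 8 of 12 libraries. In all, 30 of the 78 genes had a mean of 100 TPM or more and 9 a mean under 30.

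**Figure D1:**
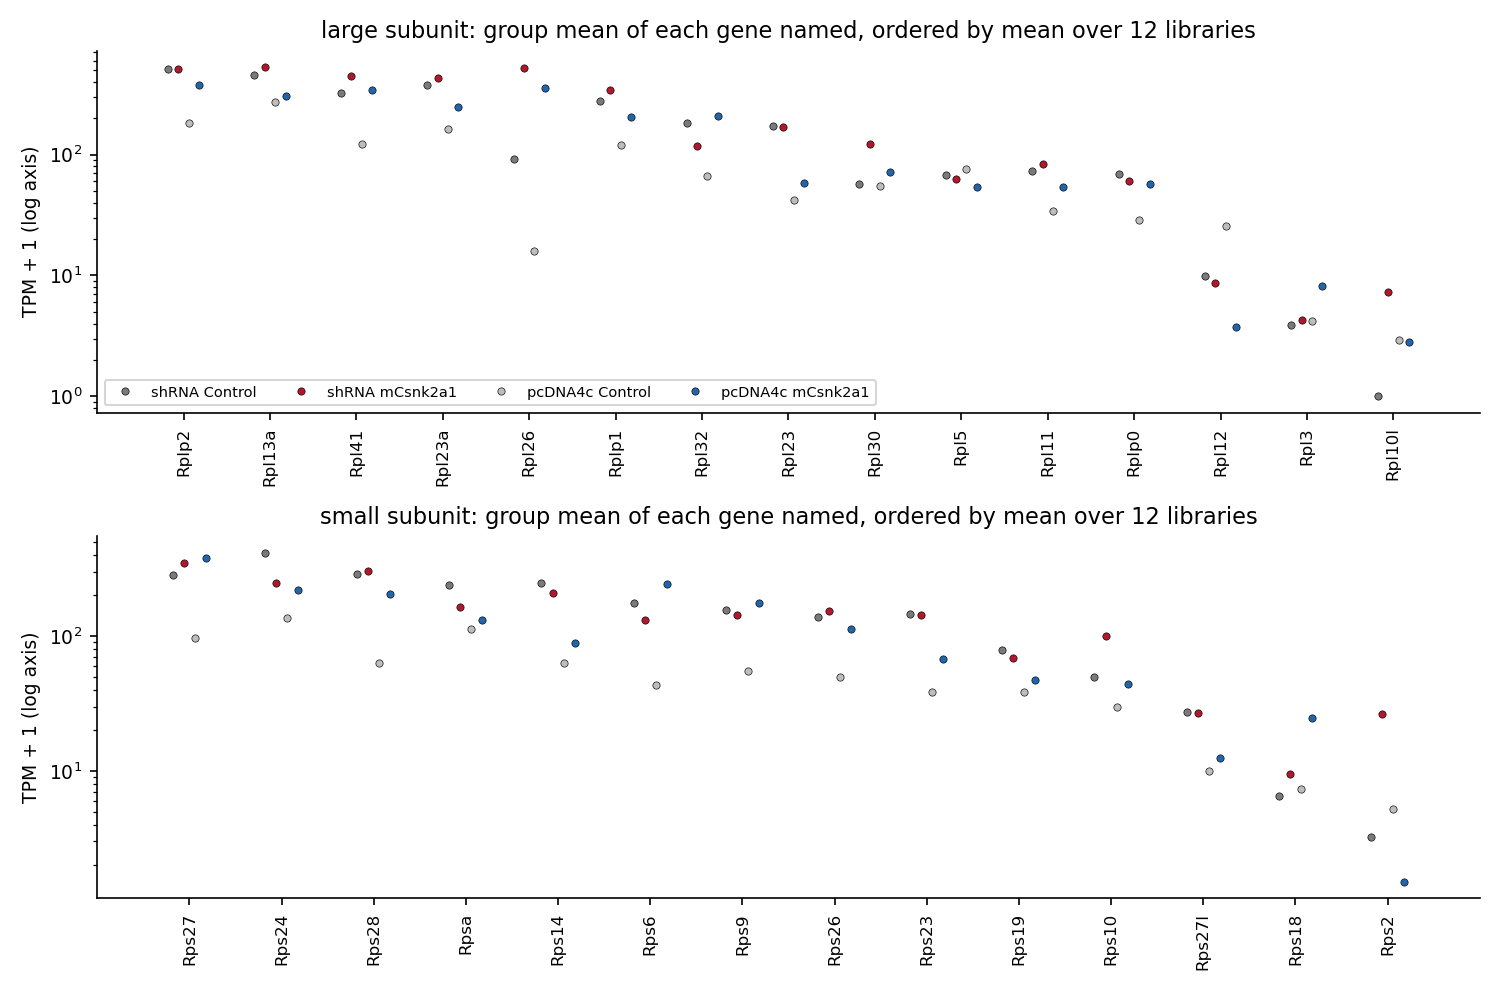
Mean TPM + 1 (log axis) in each of the 4 groups of the tested genes named in the text, large subunit above and small subunit below, ordered by their mean over 12 libraries. The points of pcDNA4c Control are the lowest of the 4 for every gene drawn except Rpl5, Rpl12, Rpl3, Rpl10l, Rps18 and Rps2, and Rpl26 has group means of 518 and 358 in the Csnk2a1 groups against 91.7 and 15.1 in the control groups.

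By group mean, pcDNA4c Control was the lowest of the 4 groups for 38 of 47 large and 25 of 31 small subunit genes in TPM, and for 31 and 20 in CPM. The highest group was shRNA Control for 35 of the 78 genes and shRNA mCsnk2a1 for 30 in TPM, but shRNA mCsnk2a1 for 50 in CPM.

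Summed over the large subunit, the level was 5704, 5145 and 5445 CPM in shRNA Control and 8739, 6222 and 7570 CPM in shRNA mCsnk2a1. All 3 knockdown libraries were above all 3 of their controls, with a ratio of means of 1.38. Summed over the small subunit, the libraries were at 4117, 3618 and 4031 CPM against 5367, 4632 and 3993 CPM, and the groups overlapped, with a ratio of 1.19. In these bulk libraries, fewer cells of a type and less RNA per cell cannot be told apart. The difference depended on the scale: in TPM the large subunit summed to 6747, 6361 and 6055 in shRNA Control and to 7414, 5843 and 6919 with knockdown, overlapping groups with a ratio of 1.05, and the ratio of the small subunit was 0.971. As a share of counts before TMM scaling, the 80 genes held 0.915% to 1.02% in shRNA Control and 0.989% to 1.32% with knockdown, also overlapping, with a ratio of 1.15. Marker sums of several retinal cell types were higher in the same 3 libraries without overlap. Beside the rod sum given above, the 9 cone markers summed to 207 to 271 CPM in the controls and 330 to 454 CPM with knockdown, with 5 and 7 of them above 0 in all 3 libraries. The cone sum leaned on Thrb, at 39.9, 11.3 and 89.1 CPM in the controls and 92.8, 165 and 318 with knockdown. Gnb3, Pde6h and Pde6c had lower means with knockdown, and the other cone markers higher ones. The 8 Müller glia markers, all above 0 in every library, summed to 496 to 783 against 948 to 1405 CPM. Clu had a lower mean with knockdown and the others of that list higher ones. The 10 markers of amacrine, horizontal and ganglion cells summed to 97.5 to 162 against 199 to 308 CPM, with 7 and 6 of them above 0 in all 3 libraries. Gad1, Calb1 and Onecut1 had lower means with knockdown, and the others of these 10 higher ones. Some of the latter leaned on a single library, with Tfap2b at 189 CPM in shRNA mCsnk2a1 1 and Lhx1 at 72.0 CPM in shRNA mCsnk2a1 3. A cone marker and a marker among these 10 were at 0 in all 3 controls. The bipolar sum overlapped, at 574 to 829 against 823 to 2086 CPM, and the macrophage sum was lower with knockdown, at 166 to 231 against 85.2 to 152 CPM. The part of any of these in the ribosomal sums was not tested.

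In the other arm the separation held on each of these scales. The large subunit summed to 3836, 3986 and 3363 CPM in pcDNA4c Control and to 4195, 4839 and 6081 CPM with overexpression, and the small subunit to 2498, 2667 and 2154 CPM against 2924, 3475 and 3552 CPM. No library of one group reached into the other, and the ratios of means were 1.35 and 1.36. In TPM the ratios were 1.87 for the large and 2.00 for the small subunit, again without overlap, and leaving out any single library moved the ratio of all 80 genes between 1.80 and 2.01. In the same comparison the macrophage markers summed to 3802 to 4317 CPM in the controls and 119 to 168 CPM with overexpression. The 8 Müller glia markers summed to 1239 to 1590 against 540 to 663 CPM and the 9 cone markers to 366 to 461 against 252 to 320 CPM, both lower with overexpression without overlap. The Müller glia sum was carried by Apoe, at 1231, 1096 and 926 CPM in the controls and 75.2, 108 and 119 with overexpression. Of the others, Rlbp1, Glul, Slc1a3, Aqp4 and Sox9 had higher means with overexpression, and Vim and Clu lower ones. The 8 bipolar markers, all above 0 in every library, were higher without overlap, at a summed 363 to 541 against 1001 to 1275 CPM. Of the cone markers 2 were at 0 in all 3 overexpression libraries. Gnb3, the cone marker with the highest mean in both groups, averaged 168 CPM in the controls and 202 CPM with overexpression. The other cone markers had lower means with overexpression. The sums of the rod markers and of the amacrine, horizontal and ganglion cell markers (153 to 206 against 84.0 to 297 CPM) overlapped. The part of any of these was not tested.

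The control groups themselves differed by ratios above those of either arm. shRNA Control was above pcDNA4c Control in every library for both subunits, with a ratio of 1.46 for the large and 1.61 for the small subunit in CPM and of 2.32 and 2.54 in TPM. The ratio of large to small subunit CPM was 1.35 to 1.42 in the hairpin controls against 1.34 to 1.90 with knockdown, and 1.49 to 1.56 in the vector controls against 1.39 to 1.71 with overexpression, so the balance of the subunits overlapped within both arms.

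**Figure D2:**
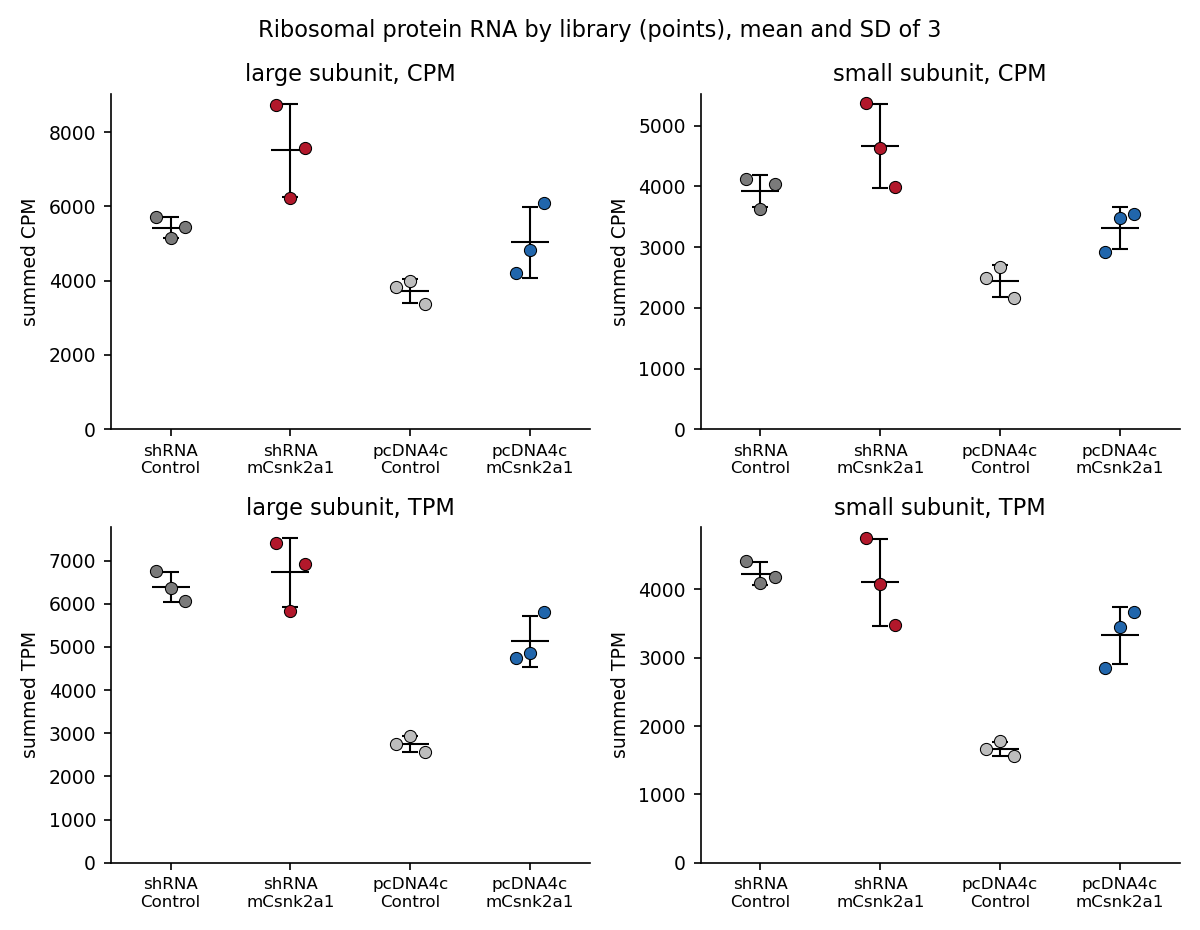
Summed level of the large (left) and small (right) subunit genes in each library, in CPM (top) and TPM (bottom), with points for libraries and bars for the mean and SD of 3. The pcDNA4c Control libraries are the lowest in all 4 panels, while the knockdown libraries lie above their controls for the large subunit in CPM and overlap them in TPM.

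Gene by gene, the two-sided quasi-likelihood test of edgeR was fitted to all 20267 genes that passed the filter, with all 12 libraries in a single fit and p-values adjusted over all genes by Benjamini-Hochberg. With knockdown no member passed an adjusted p of 0.05 in edgeR, where 0.0% of all genes did. At an unadjusted p under 0.05 there was 1 member of 78, Rpl26, against 8.33% of all genes. DESeq2 called 1 member, also Rpl26, and limma voom called 0. Over all genes they called 183 of 19548 and 2 of 20267 in that order. The median log2 difference was 0.41 over 47 large subunit genes, 35 of them above 0, and 0.32 over 31 small subunit genes, 25 of them above 0, while the median over all genes tested was -0.03. Rpl10l had no count in shRNA Control, and with it set to the bound that 3 counts over the group allow the large subunit median stayed at 0.41. Scaling by library size alone moved the median over all genes to -0.22 and those of the subunits to 0.23 and 0.15, and in TPM they were -0.31, -0.06 and -0.13, so the sign of the subunit medians turned on that scale while both stayed above the median of all genes. In 9 large and 2 small subunit genes the 3 knockdown libraries were all above the 3 controls, where 5.61% of all genes did so, and in none were they all below, where 6.68% of all genes did.

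With overexpression 1 member of 78 passed in edgeR, Rpl26, against 0.0987% of all genes. At an unadjusted p under 0.05, 10 members were higher and 1 was lower, where 8.73% of all genes passed in either direction. The subunit medians were 0.38 (35 of 47 above 0) and 0.33 (21 of 31 above 0) against -0.16 for all genes tested. They were 0.27, 0.18 and -0.30 with library size alone and 0.64, 0.62 and -0.06 in TPM. The 3 overexpression libraries were all above the 3 controls in 10 large and 8 small subunit genes, where 3.73% of all genes did so. They were all below in 3 large subunit genes and 1 of the small subunit, where 11.8% of all genes did.

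The difference of the effects, overexpression minus knockdown, had a median of 0.05 for the large and -0.08 for the small subunit, against -0.15 for all genes. In edgeR 0 members passed the adjusted threshold, where 0.0197% of all genes did, and DESeq2 and limma voom also called 0. Over all genes DESeq2 called 209 of 19548 and limma voom 1 of 20267. At an unadjusted p under 0.05 there were 3, Rps6 higher and Rpl12 and Rps2 lower, against 8.34% of all genes. The knockdown and overexpression arms share no library. Across the 78 genes, which are not independent and share depth within a library, the log2 differences of the arms had a Spearman coefficient of 0.13. The Pearson coefficient was -0.08, at 0.09 for the large and -0.48 for the small subunit. Above 0 in both arms were 43 genes and below 0 in both 5, where 60 were above 0 with knockdown and 56 with overexpression.

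Between the control vectors, shRNA Control minus pcDNA4c Control, 0 members passed in edgeR, where 0.0691% of all genes did, and 0 passed in DESeq2 and limma voom. Over all genes DESeq2 called 69 of 19548 and limma voom 12 of 20267. At an unadjusted p under 0.05, 8 were higher and 1 lower, against 4.21% of all genes. The medians were 0.54 (40 of 47 above 0) for the large and 0.70 (27 of 31 above 0) for the small subunit, against 0.00 for all genes. In 30 of 78 genes the 3 shRNA Control libraries were all above the 3 of pcDNA4c Control, where 5.13% of all genes did so, and in 2 all below, where 8.56% did. This comparison shares a control group with each of the other arms, so the values stand beside them and are not an independent repeat.

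**Figure D3:**
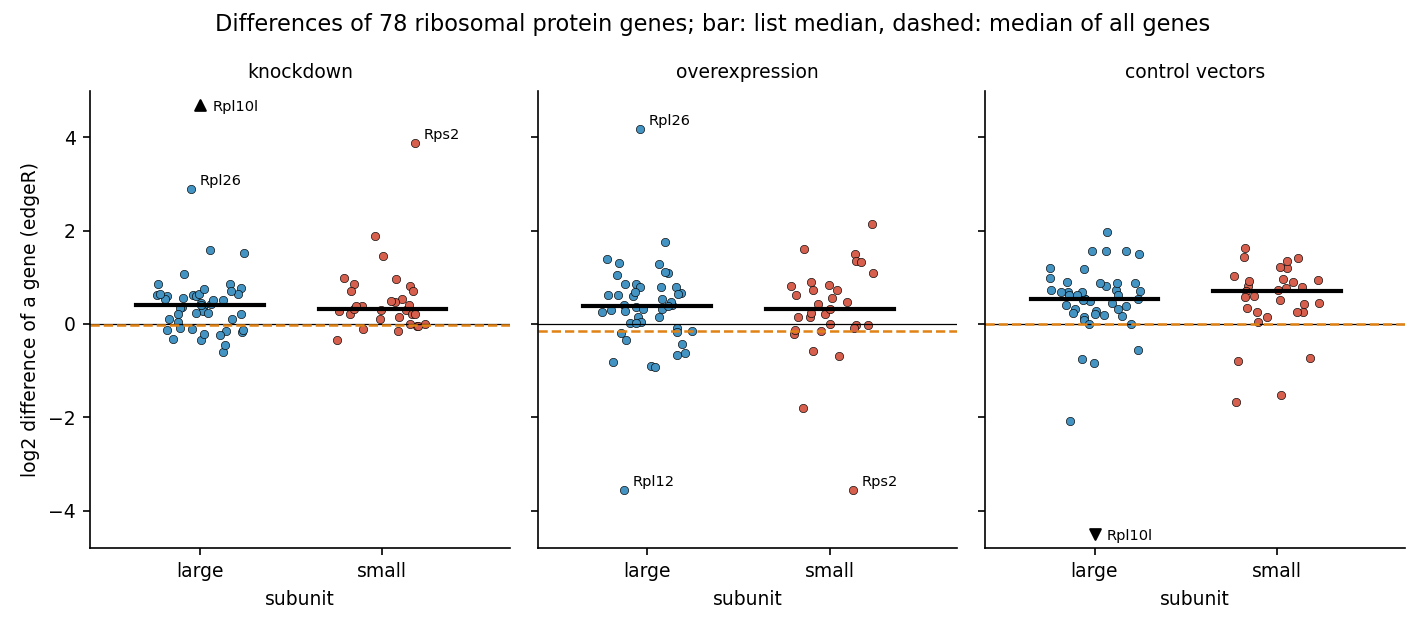
The edgeR log2 difference of each of the 78 tested genes (points) by subunit for knockdown, overexpression and the control vectors, with the subunit median (bar) and the median of all genes tested (dashed). Triangles at the edges mark Rpl10l, beyond the axis, and the subunit medians lie above the dashed line in all 3 panels, although those of knockdown fall below 0 in TPM.

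Rpl26, a protein beside the tunnel exit, is the ribosomal target of the ubiquitin-like modifier UFM1 and is known to bind the messenger RNA of p53. Its gene (ENSMUSG00000060938) lies on the plus strand at chr11:68901583-68906989 of GRCm38. It measured 80.9, 36.3 and 44.8 CPM in shRNA Control and 408, 411 and 386 CPM in shRNA mCsnk2a1. It measured 21.6, 18 and 1.66 CPM in pcDNA4c Control and 192, 301 and 255 CPM in pcDNA4c mCsnk2a1. The 6 Csnk2a1 libraries were all above the 6 control libraries. The log2 difference was 4.17 with overexpression (SE 0.71, edgeR adjusted p = 0.0158) and 2.89 with knockdown (SE 0.67, edgeR adjusted p = 0.598), and the test of the difference between the arms did not pass (1.28, SE 0.89, edgeR adjusted p = 0.733). Between the control groups it was 1.96 (SE 0.65, edgeR adjusted p = 1). The same 6 Csnk2a1 libraries were the deeper ones and had the higher mitochondrial share, and the part of either was not tested. Nearly all of it came from a single coding transcript, Rpl26-201 of 526 bases, which averaged 91.7 TPM in the hairpin controls and 518 with knockdown, and 15.1 in the vector controls and 348 with overexpression.

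A processed pseudogene, Gm15772, has almost the same sequence as the coding part of Rpl26. It lies on the plus strand at chr5:3236431-3236868 of GRCm38 and spans 438 bases, the length of the Rpl26 coding sequence with its stop codon. The 2 sequences differ at 2 of these positions, C177T and T288C, with the base of Rpl26 first, the position counted from the A of the start codon, and the base of Gm15772 last. Neither changes an amino acid (codons 59 and 96). Both fall in exon 3 of 4 of Rpl26, coding positions 169 to 309, which is shown for both loci because these are the only bases that tell their coding reads apart. Capitals mark the 2 differing bases. The stretches are chr11:68903179-68903319 (plus strand) for Rpl26 and chr5:3236599-3236739 (plus strand) for Gm15772.
Rpl26: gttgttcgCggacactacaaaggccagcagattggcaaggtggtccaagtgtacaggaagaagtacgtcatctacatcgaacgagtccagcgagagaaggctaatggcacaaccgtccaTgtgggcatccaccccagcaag
Gm15772: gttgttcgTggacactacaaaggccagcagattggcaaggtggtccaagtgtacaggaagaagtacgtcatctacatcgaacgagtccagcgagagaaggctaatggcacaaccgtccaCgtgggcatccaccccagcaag

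Gm15772 had a mean of 225 CPM over the 12 libraries, against 180 for Rpl26. It measured 400, 232 and 447 CPM in shRNA Control and 204, 164 and 122 CPM in shRNA mCsnk2a1, where all 3 knockdown libraries were below the controls. It measured 244, 201 and 146 CPM in pcDNA4c Control and 106, 205 and 229 CPM in pcDNA4c mCsnk2a1, which overlapped. Its log2 difference was -1.14 with knockdown (SE 0.47, edgeR adjusted p = 0.598) and -0.13 with overexpression (SE 0.47, edgeR adjusted p = 1). Of the counts on Rpl26 and its 3 look-alike loci together, Rpl26 held 9.11% to 16.8% in the hairpin controls against 65.9% to 76.0% with knockdown. It held 1.07% to 8.20% in the vector controls against 52.3% to 64.4% with overexpression.

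Summed over Rpl26 and its look-alikes, the level was 481, 268 and 492 CPM in the hairpin controls and 619, 575 and 508 CPM with knockdown. It was 266, 219 and 155 CPM in the vector controls and 299, 506 and 487 CPM with overexpression. The groups still did not overlap in either arm, but the log2 differences were 0.46 with knockdown and 1.01 with overexpression (SE 0.39, edgeR adjusted p = 0.568), and the call of Rpl26 ended. The sources used here do not say how reads shared by such loci were divided. For Rpl26 alone the log2 difference was as large in limma voom (4.73, adjusted p = 0.102) and in a fit of the 6 libraries of that arm (4.22, edgeR adjusted p = 0.301), but did not pass the threshold there.

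**Figure D4:**
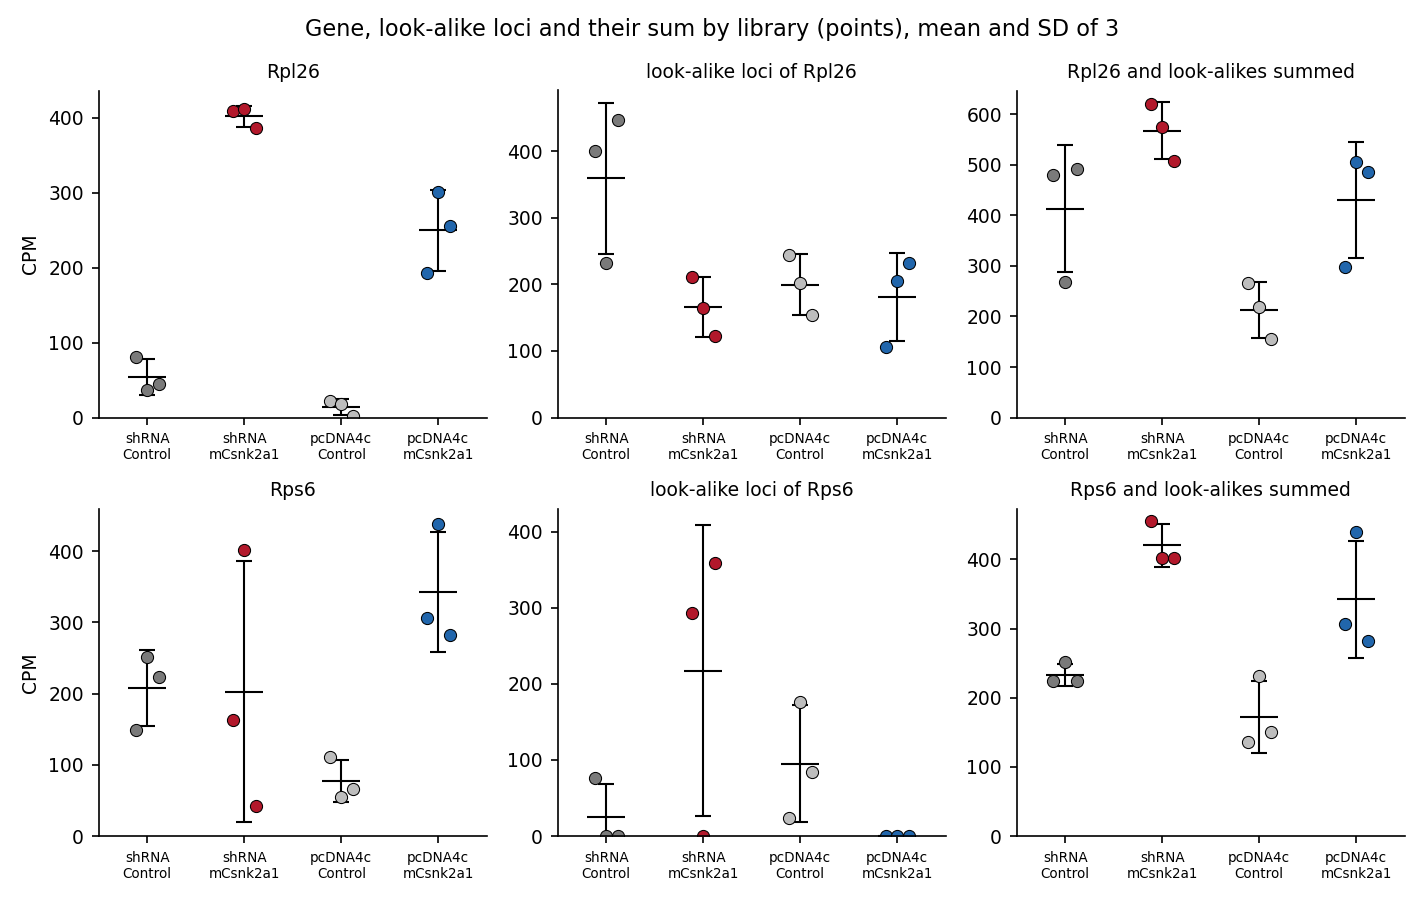
CPM of Rpl26 (top) and Rps6 (bottom) alone, of their look-alike pseudogene loci, and of both summed, with points for libraries and bars for the mean and SD of 3. Rpl26 alone lies at 192 to 411 CPM in the 6 Csnk2a1 libraries and 1.66 to 80.9 CPM in the 6 control libraries, a gap that narrows in the sum, and the knockdown values of Rps6, 42.1 to 402 CPM alone, lie at 401.5 to 456 CPM in the sum.

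Such look-alikes were the rule for this gene group. Of the 80 genes, 67 had at least 1 pseudogene locus that shared 50% or more of its 31-base words with the gene, the word length used here for the comparison, and 56 had such a locus with counts. The median gene had 42.7% of its 31-base words also in other genes, with a range of 0% to 94.1%. In 16 gene and pseudogene pairs the aligned bases were identical, and in 9 the pseudogene had a higher mean CPM than the gene. Rpl3 held 3.76% of the counts of its group, with Rpl3-ps1 on the X chromosome at 248 CPM and Rpl3 at 9.84, where 1210 aligned bases differed at 2. Rps2 held 12.5%, Rpl12 27.6% and Rpl5 25.4% of theirs. The low levels of Rpl3, Rps2 and Rpl12 given above are thus levels of what was counted on the gene.

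With the look-alike counts added, the spread between libraries was narrower where the gene held little of the sum. More counts alone tend to lower an SD on a log scale, and these genes gain the most counts. The narrowing therefore does not show how reads were divided, which was not tested. Over the 25 genes that held under 80% of their sum, the median SD within groups went from 0.921 to 0.454 on the log2(CPM + 1) scale, and it was smaller for 24 of them. Over all 78 genes the medians were 0.611 and 0.506. For comparison, the median was 0.917 over 2658 tested genes with a mean CPM between the lowest and highest quartile of the members. That set was matched to the level of the gene alone, not to that of the sum. With the look-alikes added, the subunit medians were 0.40 and 0.39 with knockdown, 0.41 and 0.69 with overexpression and 0.59 and 0.69 between the control vectors. In that fit 0 members passed in edgeR with knockdown, with overexpression, for the difference of effects or between the control vectors, where 0.0%, 0.0939%, 0.0198% and 0.0692% of all genes did. At an unadjusted p under 0.05 there were 1, 10, 0 and 10 of 78 members in that order, against 8.35%, 8.73%, 8.33% and 4.2% of all genes.

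**Figure D5:**
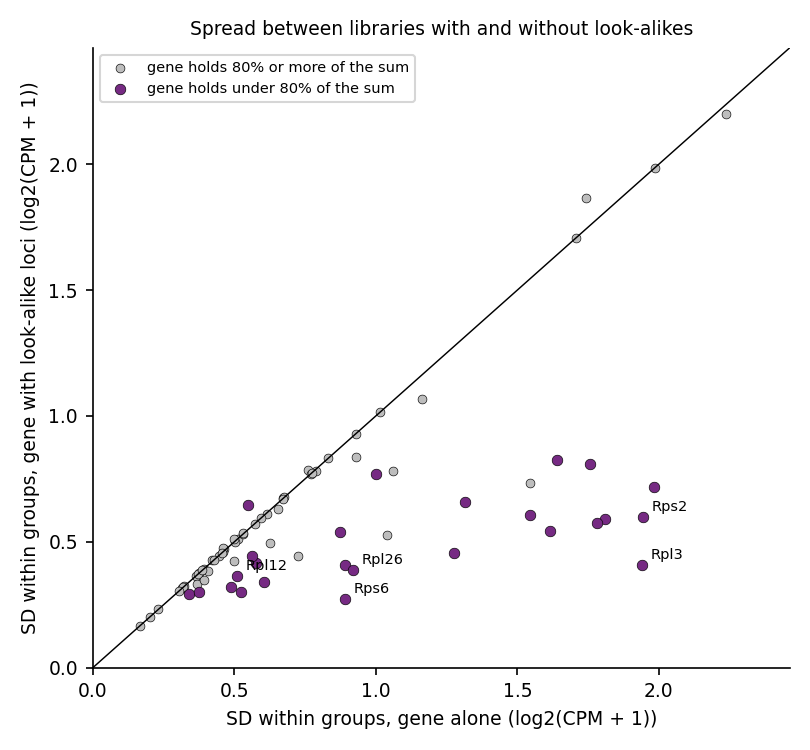
SD within groups on the log2(CPM + 1) scale of each tested gene alone (horizontal) and with its look-alike loci added (vertical); the line marks equal spread. Genes that hold under 80% of their sum lie below the line in 24 of 25 cases, Rpl3 from 1.94 to 0.409 among them. Added counts alone tend to lower this SD.

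Rps6, the small subunit protein phosphorylated by the S6 kinases, is another case. It measured 149, 252 and 224 CPM in the hairpin controls and 163, 402 and 42.1 CPM with knockdown. It measured 111, 54.5 and 65.9 CPM in the vector controls and 307, 438 and 282 CPM with overexpression. The overexpression libraries were all above their controls (log2 difference 2.15, SE 0.63, edgeR adjusted p = 0.497), and the knockdown libraries lay on both sides of theirs (-0.04, SE 0.60, edgeR adjusted p = 1). DESeq2 called the overexpression difference (adjusted p = 0.0415). Its pseudogene Rps6-ps4 is identical over 750 aligned bases. Summed with its look-alikes, Rps6 was at 224.5, 252 and 223.5 CPM in shRNA Control and 456, 402.5 and 401.5 CPM with knockdown, which no longer overlapped. In the other arm the sums were 135, 231 and 150 CPM against 307, 439 and 282 CPM, and the log2 differences of the sums were 0.85 and 0.99.

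Rpl12 had the lowest log2 difference of the tested large subunit genes with overexpression. It measured 117, 75 and 51.5 CPM in pcDNA4c Control and 9.19, 5.33 and 6.04 CPM in pcDNA4c mCsnk2a1, with no overlap (log2 difference -3.56, SE 1.02, edgeR adjusted p = 0.472, DESeq2 adjusted p = 0.00419). In the other arm it was at 21.3, 13.7 and 22.7 CPM in shRNA Control and 35.3, 16 and 15 CPM in shRNA mCsnk2a1, which overlapped. In TPM, Rpl12-207, a transcript annotated as a retained intron, was at 15.2, 14.4 and 11.3 in pcDNA4c Control and 3.46, 2.05 and 1.58 in pcDNA4c mCsnk2a1. The coding transcript Rpl12-203 was at 0, 8.09 and 1.93 against 0.303, 0 and 0.825 TPM, which overlapped. Rpl12 held 59.1% to 68.9% of the counts of its group in pcDNA4c Control and 7.08% to 28.8% in the other 9 libraries. Summed with its look-alikes it was at 182.5, 127 and 74.8 CPM in pcDNA4c Control and 81.8, 75.2 and 81.9 CPM in pcDNA4c mCsnk2a1, so the groups overlapped, and the log2 difference was -0.69. The macrophage markers were high in the same 3 control libraries, and their part was not tested.

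Rpl41 and Rps26 held nearly all counts of their groups of look-alikes. Rpl41 was at 245, 171 and 178 against 296, 378 and 398 CPM with knockdown and at 129, 121 and 88.1 against 204, 195 and 338 CPM with overexpression. In CPM it did not overlap in either arm, with log2 differences of 0.85 (SE 0.43, edgeR adjusted p = 0.607) and 1.12 (SE 0.44, edgeR adjusted p = 0.568). In TPM its knockdown libraries overlapped their controls. Rps26 was at 124, 115 and 85.1 against 175, 163 and 133 CPM with knockdown and at 82.2, 49.0 and 43.8 against 100.2, 96.2 and 115 CPM with overexpression. In CPM it too did not overlap in either arm (0.54, SE 0.54, edgeR adjusted p = 0.917 and 0.83, SE 0.54, edgeR adjusted p = 0.719).

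Rps9, which helps keep decoding accurate, was at 100, 83.5 and 68.7 CPM in pcDNA4c Control and 119, 248 and 265 CPM with overexpression, with no overlap (1.32, SE 0.49, edgeR adjusted p = 0.568). With knockdown it overlapped its controls (0.27, SE 0.48). Rps27, Rps28 and Rpl32 did not overlap with overexpression either, at 1.6, 1.36 and 1.28, each with an edgeR adjusted p of 0.568. Rpl32 had a log2 difference of -0.23 with knockdown, where its groups overlapped.

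Rpl30, Rpl10l, Rps10 and Rps2 were among the 3 members of their subunit with the smallest p with knockdown. Rpl30 was at 15.6, 61.3 and 32.3 CPM in shRNA Control and 134, 122 and 58.5 CPM in shRNA mCsnk2a1, which overlapped (1.53, SE 0.77, edgeR adjusted p = 0.604). Rps10 was at 63.3, 33.3 and 10.8 against 172, 77.5 and 44.6 CPM and overlapped too (1.45, SE 0.87, edgeR adjusted p = 0.684). Rps2 was at 2.59, 4.76 and 0 against 15.8, 92.6 and 0.713 CPM, a difference carried by the library shRNA mCsnk2a1 2. Rpl10l was at 0 in 2 of the 3 knockdown libraries and at 36.3 CPM in the same library, so no fold is given for it.

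The stalk proteins are of interest here because CK2 is known to phosphorylate their acidic tails. Rplp0, the base of the stalk, averaged 67.6 TPM ± 8.23 in the hairpin controls, 59.5 ± 18.2 with knockdown, 27.6 ± 12.8 in the vector controls and 55.8 ± 25.1 with overexpression (SD, n = 3). Rplp1 averaged 278, 342, 120 and 202 TPM and Rplp2 508, 511, 183 and 378 TPM in the same order, so the mean of both acidic partners was above that of Rplp0 per length in every group. In CPM, Rplp1 was at 127, 138 and 190 in shRNA Control and 306, 214 and 214 with knockdown, without overlap (0.69, SE 0.52, edgeR adjusted p = 0.823). Rplp2 and Rplp0 overlapped with knockdown (0.41 and 0.22), and all 3 overlapped with overexpression (0.38 to 0.68, lowest edgeR adjusted p = 0.706).

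Rpl5 and Rpl11 enter the large subunit together with its small ribosomal RNA, and when unassembled they bind MDM2, the ligase that destroys p53. Rpl11 overlapped in both arms, at 127, 11.3 and 85.1 against 179, 62.8 and 98.1 CPM with knockdown and 46.2, 71.0 and 37.7 against 42.9, 62.0 and 89.0 CPM with overexpression. Rpl5 went the other way from most members with overexpression, at 158, 179 and 168 CPM in pcDNA4c Control and 39.4, 98.1 and 147 CPM in pcDNA4c mCsnk2a1, with no overlap (-0.83, SE 0.56, edgeR adjusted p = 0.746). Its look-alike Gm15500 had a mean of 350 CPM against 121 CPM for Rpl5, and with the look-alikes added the log2 difference was 0.54. Rps19, the protein most often mutated in Diamond-Blackfan anaemia, and Rpsa overlapped in both arms, with log2 differences of 0.21 and -0.03 for Rps19 and -0.15 and -0.13 for Rpsa.

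Between the control groups the members with the smallest p after Rpl26 were Rpl23, Rps28, Rps14 and Rps23. Rps28, a small protein at the messenger RNA exit, was at 61.7, 121 and 137 CPM in shRNA Control and 37.9, 36.0 and 28.8 CPM in pcDNA4c Control, with no overlap (1.63, SE 0.61, edgeR adjusted p = 1; limma on log2(TPM + 1), adjusted p = 0.0359). Rps14 was at 160, 142 and 229 against 68.4, 70.5 and 61.5 CPM (1.40, SE 0.54) and Rps23, which sits at the decoding centre, at 202, 137 and 171 against 69.4, 72.0 and 59.3 CPM (1.34, SE 0.55), both without overlap and with an edgeR adjusted p of 1. Rpl23 was at 261, 81.6 and 317 against 75.3, 87.0 and 72.0 CPM (1.49, SE 0.55, edgeR adjusted p = 1) and overlapped in the library shRNA Control 2. In pcDNA4c mCsnk2a1, Rpl23, Rps14 and Rps23 averaged 85.9, 74.1 and 91.8 CPM against 78.1, 66.8 and 66.9 in pcDNA4c Control. The pseudogene Rps23-ps1 is identical to Rps23 over 425 aligned bases, with a mean of 195 CPM against 137 for Rps23. Rps23 held 48.3% to 51.0% of the counts of its look-alike group in shRNA Control and 32.6% to 40.1% in pcDNA4c Control. Over the alternatives that kept all libraries of both groups its log2 difference was 0.82 to 1.90.

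Among the genes whose log2 CPM followed Rpl26 most closely over the 12 libraries were Zfp385a (Pearson 0.93), Rpl41 (0.91), Pcp2 (0.90) and Atp5mpl (0.89). These coefficients are a description over 12 libraries that share depth and group. Rpl41 is a member of the group.

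Genes of the same pathway outside the name rule were read for comparison. Over all genes tested, 48.9% were above 0 with knockdown and 45.1% with overexpression, and 8.33% and 8.73% had an unadjusted p under 0.05. Of 7 further ribosomal proteins, 5 were above 0 with knockdown (median 0.45) and 6 with overexpression (median 0.20). None passed in edgeR, where 1 and 0 had an unadjusted p under 0.05. Of 15 translation factors and related genes whose messenger RNAs start with the same pyrimidine run, 12 were above 0 with knockdown (median 0.29) and 13 with overexpression (median 0.80), 0 passed in edgeR, and 0 and 4 had an unadjusted p under 0.05. Ribosome assembly genes were split, with 16 of 30 above 0 with knockdown (median 0.19) and 14 of 30 with overexpression (median -0.09), 0 past the adjusted threshold and 3 in each arm at an unadjusted p under 0.05. Of 11 genes that control ribosomal protein translation 7 and 5 were above 0 (medians 0.68 and -0.17), of 7 genes of UFM1 conjugation 5 and 4 (0.51 and 0.17), and of 9 tested p53 targets 5 and 4 (0.35 and -0.04). In these 3 lists 0 genes passed the adjusted threshold in edgeR in either arm, and at an unadjusted p under 0.05 there were 1, 1 and 0 with knockdown and 0, 0 and 1 with overexpression.

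Most of the members' RNA was counted on transcripts annotated as protein-coding, which held 81.6% to 88.5% of their summed TPM by library. Rpl12 and Rps2 were among the exceptions. Coding Rpl12-203 averaged 2.76 TPM against 5.42 for the retained intron transcript Rpl12-207. Coding Rps2-208 averaged 0.653 TPM against 5.49 for the retained intron transcript Rps2-205, which came mostly from the library shRNA mCsnk2a1 2. Retained intron transcripts held 8.90% to 11.0% in pcDNA4c Control and 3.73% to 8.16% in the other 9 libraries, so the group with the lowest level also had the highest share of retained introns. Whether the share of retained introns bears on the level was not tested.

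Promoter windows from RefSeq (GRCm38.p6), from 250 bases before to 50 after a start, were found for 60 of the 80 genes, some with several starts. The stretch from 60 bases before to 30 bases after a RefSeq start is shown for Rpl26, the only member called in the main edgeR fit. For Rpl26 that start lies before the gene start given above. Rps6 is shown as another gene whose share of its look-alike group differed widely between libraries, and Rps27 and Rpl41 as highly expressed genes of either subunit. Capitals mark 4 words searched: CCGGAAG (the core of ETS factor sites), TCTCGCGAGA and AAGATGG (a YY1 core), each on both strands of the whole window, and CTTTC on the transcribed sequence from 10 bases before to 30 after the start. They lie at chr11:68901506-68901595 (plus strand), chr4:86857338-86857427, chr3:90213619-90213708 and chr10:128549139-128549228 (minus strand), in that order.
Rpl26: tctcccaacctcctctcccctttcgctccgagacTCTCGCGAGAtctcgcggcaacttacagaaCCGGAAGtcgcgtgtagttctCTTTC
Rps6: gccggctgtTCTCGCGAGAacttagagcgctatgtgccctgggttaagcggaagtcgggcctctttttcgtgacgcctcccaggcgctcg
Rps27: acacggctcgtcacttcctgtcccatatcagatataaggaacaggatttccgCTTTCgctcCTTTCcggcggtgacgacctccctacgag
Rpl41: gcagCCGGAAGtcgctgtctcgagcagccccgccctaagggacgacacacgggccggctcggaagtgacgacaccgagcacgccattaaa

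The ETS word was in 36.1% of the 72 windows of members and in 8.86% of all 32817 windows, the word TCTCGCGAGA in 9.72% and 0.466%, AAGATGG in 15.3% and 6.34%, and CTTTC near the start in 25% and 4.85%. By gene, the ETS word was found for 15 of 37 large and 10 of 23 small subunit genes, and CTTTC near the start for 14 and 4. Words that share bases were each counted. A match is a run of letters and not a tested site, and windows of a gene with several starts overlap.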

How the data were processed

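The files are those the authors deposited. Their tools, per the submitters' processing notes, included edgeR 3.28 and kallisto 0.45.0, and the build was mm10; settings and annotation release are not given. Of the deposited tables, that of 52962 genes holds estimated counts of 12 libraries, not normalized. The deposited transcript table, titled as counts, holds TPM values, since its columns all add up to the same total; gene TPM is their sum per gene. Another deposited table holds a scaled signal, 1 constant per library times the counts, for 11 libraries, and was not used for a result. Positions and transcript sequences come from GENCODE mouse release M21 (GRCm38).

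Rounded counts were tested in edgeR 4.0.16 under R 4.3.3 (filterByExpr with a minimum count of 10, TMM, glmQLFit and glmQLFTest, 4 groups in 1 fit with 8 residual degrees of freedom, Benjamini-Hochberg over 20267 genes, threshold 0.05). The SE of a log2 difference is its size over the square root of the F statistic. CPM values are TMM-scaled. The labels describe no molecular identifiers, so amplified copies were not removed by them. The biological coefficient of variation was 1.26. Alternatives used DESeq2 1.42.0, limma 3.58.1 (voom, and trend on log2(TPM + 1)), other scalings and filters, pseudogene loci added to their gene, a replicate block, and each library left out. The pseudogene loci sharing 50% of their 31-base words with a member, 297 in all, were added to the member they share most with, an alternative chosen after seeing the data. The test was also run on simulated data, with changes larger than the subunit medians given here. That run does not cover differences of the size of those medians.

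The members and lists were chosen with earlier results of these data known, so lists get counts and medians and no p. Members named are those past the threshold, the 3 with the smallest p per subunit and comparison, the 5 highest and 3 lowest in mean TPM per subunit, restricted paralogs, members at 0 throughout, and those with a role described (stalk, Rpl5, Rpl11, Rps6, Rps19, Rpsa, Rpl26), plus Rps26 and Rpl10a, named after their values were seen. Some genes that the rule names are not reported here.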

Additional observations from a re-analysis of the deposited data

How the results depend on the processing

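Direction and calls were recomputed under 24 alternatives. Members called with knockdown went from 0 to 1 (Rpl26) with no filter on low counts and with DESeq2. With overexpression the count went from 1 to 3 in DESeq2 (Rpl26, Rps6 and Rpl12) and to 0 in limma voom, with only the 6 libraries of the comparison and with similar pseudogene loci added, where the small subunit median was 0.69. In TPM the subunit medians were -0.057 and -0.13 with knockdown, 0.62 and 0.66 for the difference of effects and 1.16 and 1.19 between the control vectors, where 1 member (Rps28) was called. Leaving out 1 library gave 1 to 2 members called with overexpression, the second being Rpl10a (-4.38, adjusted p = 0.0386) without pcDNA4c mCsnk2a1 replicate 3, and a small subunit median of -0.089 to 0.27 for the difference of effects, highest without pcDNA4c mCsnk2a1 replicate 1. Without shRNA mCsnk2a1 replicate 2 the knockdown log2 value of Rpl10l was 0, against up to 8.41 in the other leave-one-out fits, since that library held all its counts there. Over its leave-one-out fits the adjusted p of Rpl26 with overexpression was 0.00524 to 0.0391. Over all genes, the calls with knockdown, with overexpression, for the difference of effects and between the control vectors were 0, 20, 4 and 14. They were 183, 249, 209 and 69 in DESeq2, 93, 111, 137 and 71 with no filter on low counts, 1, 63, 25 and 49 in TPM, and 2, 37, 1 and 12 in limma voom. With overexpression they were 6 with only the 6 libraries, 11 without mitochondrial and 7SL genes, and 14 to 35 over the leave-one-out fits, highest without pcDNA4c mCsnk2a1 replicate 1. Where no cause is given above, the cause was not tested.

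With the replicate block the members called stayed at 0 with knockdown and 1 with overexpression (Rpl26, adjusted p = 0.00605), the medians were 0.38 and 0.28 with knockdown and 0.35 and 0.28 with overexpression, and no call of a named member changed. The replicate numbers only number the samples: those of the same number did not deviate together (correlations -0.040 to 0.036, against -0.036 to 0.053 for different numbers). Libraries of 50 to 100 cells limit what can be called at this depth, so a member that did not pass is not shown to be level.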
